A study of Homo sapiens with 4 samples.

Results

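The genes described here were 10 genes of transcription factors and coactivators of the B lineage: PAX5, EBF1, TCF3, IKZF1, IKZF3, FOXO1, BACH2, POU2AF1, SPIB and BCL11A. They were chosen by name, as the lines of the 4 peak files whose gene symbol is one of the 10, out of 18576 gene symbols that the files list. Each of the 10 symbols was listed in at least 1 file. The study used chromatin immunoprecipitation followed by sequencing (ChIP-seq) to map H3K4me3, the trimethylation of lysine 4 on histone H3, and the protein WDR5 in 2 established human leukemia cell lines. Each antibody was used on 1 sample of each line, 4 samples in all, without replicates. The RS4;11 line comes from acute lymphoblastic leukemia (ALL) of B-cell precursors and the THP-1 line from monocytic acute myeloid leukemia (AML), and each disease is represented by this single line. According to the study, both carry a rearranged MLL gene. Both were grown in RPMI medium with fetal bovine serum, and the labels give no treatment. The labels call both WDR5 samples lymphoblastic and both H3K4me3 samples myeloid, so the type of leukemia follows the antibody there. The cell line in the labels and the leukemia type in the study were used instead.

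H3K4me3 is laid down at the start of active and poised genes by SET1 and MLL methyltransferase complexes, and WDR5 is a subunit these complexes share. B-cell development is directed by a small network of transcription factors. The E protein TCF3 and EBF1 open the B-lineage program, PAX5 then holds cells to it, and Ikaros family factors, FOXO1 and BACH2 act with them through the precursor stages.

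To show the start regions that the peaks do or do not hold, the bases before the transcription start site (TSS) were taken from a RefSeq promoter table of the build GRCh38.p14, with entries for 8 of the 10 genes, 14 in all. IKZF3 and POU2AF1 were not among them. Each entry was matched to 1 exact place in GRCh37, whose coordinates are those of hg19, and the 250 bases upstream of the start are printed 5′ to 3′. PAX5 (chr9:37034266-37034515, minus strand) and FOXO1 (chr13:41240779-41241028, minus strand) lie in a listed H3K4me3 peak in THP-1 only. BACH2 (chr6:91006563-91006812, minus strand) lies in one in both lines, and SPIB (chr19:50921945-50922194, plus strand) lies wholly in one in RS4;11 and, but for its first bases, in one in THP-1. The last sequence is the WDR5 peak in an intron of EBF1 (chr5:158333739-158333977, plus strand of GRCh37), which is the single WDR5 peak listed for any of the 10 genes. Capitals mark matches to the motifs searched.
PAX5 upstream: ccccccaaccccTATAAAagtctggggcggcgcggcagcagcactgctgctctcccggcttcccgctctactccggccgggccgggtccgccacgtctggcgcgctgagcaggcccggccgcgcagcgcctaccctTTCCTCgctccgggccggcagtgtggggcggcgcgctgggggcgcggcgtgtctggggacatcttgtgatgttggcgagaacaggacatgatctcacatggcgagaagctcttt
FOXO1 upstream: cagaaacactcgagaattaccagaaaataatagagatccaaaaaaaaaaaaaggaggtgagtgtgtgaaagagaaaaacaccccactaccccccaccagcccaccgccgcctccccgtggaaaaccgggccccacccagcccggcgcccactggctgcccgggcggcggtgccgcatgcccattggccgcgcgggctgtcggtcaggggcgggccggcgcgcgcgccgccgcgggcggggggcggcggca
BACH2 upstream: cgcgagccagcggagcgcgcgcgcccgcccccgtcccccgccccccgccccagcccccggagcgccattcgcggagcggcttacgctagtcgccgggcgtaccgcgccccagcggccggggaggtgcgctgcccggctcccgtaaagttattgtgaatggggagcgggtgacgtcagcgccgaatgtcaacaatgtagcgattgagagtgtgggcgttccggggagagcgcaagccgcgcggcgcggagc
SPIB upstream: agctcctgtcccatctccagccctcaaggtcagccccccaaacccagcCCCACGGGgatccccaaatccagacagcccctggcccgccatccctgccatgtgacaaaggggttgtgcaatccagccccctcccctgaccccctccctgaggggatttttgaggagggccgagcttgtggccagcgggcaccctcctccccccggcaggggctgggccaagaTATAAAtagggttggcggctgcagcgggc
EBF1 WDR5 peak: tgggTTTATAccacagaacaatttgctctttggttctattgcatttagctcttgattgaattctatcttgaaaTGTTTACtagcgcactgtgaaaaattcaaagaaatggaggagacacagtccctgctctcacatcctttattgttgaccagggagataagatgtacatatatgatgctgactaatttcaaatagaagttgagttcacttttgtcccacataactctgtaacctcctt

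The motifs were searched on both strands: the E-box CAGGTG, the EBF core CCCNNGGG, the octamer ATGCAAAT, the ETS core GAGGAA, the Ikaros core TGGGAA, the forkhead motif TGTTTAC and the TATA box TATAAA. No matches overlapped in the sequences printed. In PAX5 there was 1 match to the ETS core and 1 to the TATA box letters, at positions -114 and -238 from the start. SPIB held the EBF core at -202 and the TATA box at -29, and FOXO1 and BACH2 held none of these letters. The EBF core was found in 4 of the 14 entries (28.6%) and in 17.1% of 35114 promoters of the same length. The ETS core was found in 5 entries (35.7%, against 23.6% of all), the Ikaros core in 3 (21.4%, against 20.8%) and the TATA box in 3 (21.4%, against 10.7%). The E-box, octamer and forkhead letters were in none of the 14, and 17.5%, 1.63% and 2.98% of all promoters held them. Several entries belong to 1 gene (5 to BCL11A and 3 to IKZF1), so the entries are not independent. The BACH2 sequence was 73.6% G and C with 40 CpG dinucleotides, the PAX5 sequence 69.6% with 27 and the SPIB sequence 66.4% with 7. The WDR5 peak in EBF1 was 36.8% G and C with 1 CpG, and held 1 match each to the forkhead motif and the TATA box.

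The H3K4me3 files hold 24212 peaks in RS4;11 and 26523 in THP-1, which cover 40.3 Mb and 41.0 Mb, with median widths of 1391 and 1241 bp. The WDR5 files hold 703 and 225 peaks. Each line of a file pairs a peak with a transcript within 20 kb, so a peak can be listed under several genes. The files give neither tag counts nor peak heights, so the depth is unknown and a peak can be described only by its position and width. Each library pools many cells, so a mark in fewer cells and less of the mark per cell cannot be told apart. Covered length is the number of bases under the distinct peaks listed for a gene. Among 10 B-lineage markers, 5 had at least 2-fold more covered length in RS4;11 (13.7% of all symbols) and 1 in THP-1 (20% of all symbols), with a summed covered length of 49315 and 27924 bp. VPREB1 was listed in neither line and IGLL1 not in THP-1. All 10 are also in the list of 20 B-cell genes given further below. The marker lists were chosen with earlier results of these data known, so their counts are not an independent check against the background. Among 10 monocytic markers, 1 (CLEC4A) was larger in RS4;11 and 2 (ITGAM and S100A8) in THP-1, shares near those backgrounds. Their sums were 34664 and 47328 bp, of which ITGAM had 1094 and 7201 bp, and S100A8 was not listed in RS4;11. Of 5 T-cell markers, 2 (CD2 and CD5) were larger in RS4;11 and none in THP-1, with sums of 11821 and 6583 bp, and CD2 was not listed in THP-1. CD3D and CD3G had the same values, 3028 and 1844 bp, and both enter these sums.

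A TSS with no listed peak cannot be read as unmarked in these files, which hold no tag counts. No H3K4me3 peak was wider than 4478 bp in RS4;11 or 4446 bp in THP-1. Over all protein-coding genes, the share of starts that were also in a THP-1 peak was 91.2% for RS4;11 peaks of 2000 to 2500 bp, and it was lower for both narrower peaks (59.3% under 500 bp, 65.9% at 500 to 1000 bp) and wider ones (59.6% at 4000 to 4500 bp). In the other direction it was 31.0%, 40.3% and 52.9% for THP-1 peaks in the 3 classes under 1500 bp, 88.7% for those of 3000 to 3500 bp and 73.4% for those of 4000 to 4500 bp. Of 10 housekeeping genes chosen after the values were seen, 6 (ACTB, GAPDH, B2M, EEF1A1, TBP and PGK1) had no listed peak on the TSS in either line. The TSS was in a peak for 4 of the 10 in RS4;11 and 3 in THP-1. Of all canonical TSS, 49.6% and 53.3% were. Because of how they were chosen, these genes serve as examples and cannot measure how often a marked start is unlisted. Whether any peaks were lost from the files was not tested, nor was a part of this in the unlisted canonical starts of the 10 genes. The unlisted starts were those of PAX5, EBF1 and FOXO1 in RS4;11, of POU2AF1 in THP-1, and of IKZF1, TCF3 and BCL11A in both lines.

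**Figure D1:**
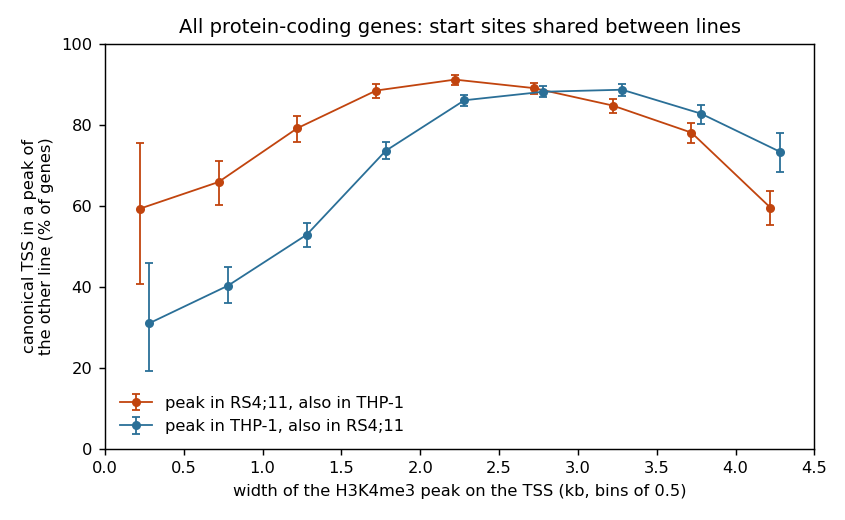
Share of canonical TSS in a peak of one line that were also in a peak of the other (% of genes, axis from 0 to 100), by the width of the peak in bins of 0.5 kb, with 95% Wilson intervals that cover counting error only. The share was lower at both ends, at 59.3% for the narrowest and 59.6% for the widest RS4;11 peaks, and at 31.0% and 73.4% for those of THP-1.

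The 10 genes together had 37 distinct H3K4me3 peaks in RS4;11, with a covered length of 57.1 kb, and 50 peaks in THP-1, with 66.8 kb. In RS4;11 8 of the genes were listed and in THP-1 9. Covered length was at least 2-fold larger in RS4;11 for 1 gene, POU2AF1, where 13.7% of the 18494 symbols in either H3K4me3 file met the same rule. In the direction of THP-1 it was so for 3 genes, PAX5, IKZF1 and BCL11A, against 20% of all symbols. A gene listed in a single line counts as larger there and has no fold. POU2AF1 was listed in RS4;11 only (5.69% of all symbols) and PAX5 and IKZF1 in THP-1 only (11.7% of all symbols). The shares of 1 and 3 in 10 genes are near these backgrounds. The median of the difference in covered length, RS4;11 minus THP-1, was -1603.5 bp over the 10 genes and -126.5 bp over all symbols. With 1 sample per line, no difference between the lines could be tested against replicates.

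**Figure D2:**
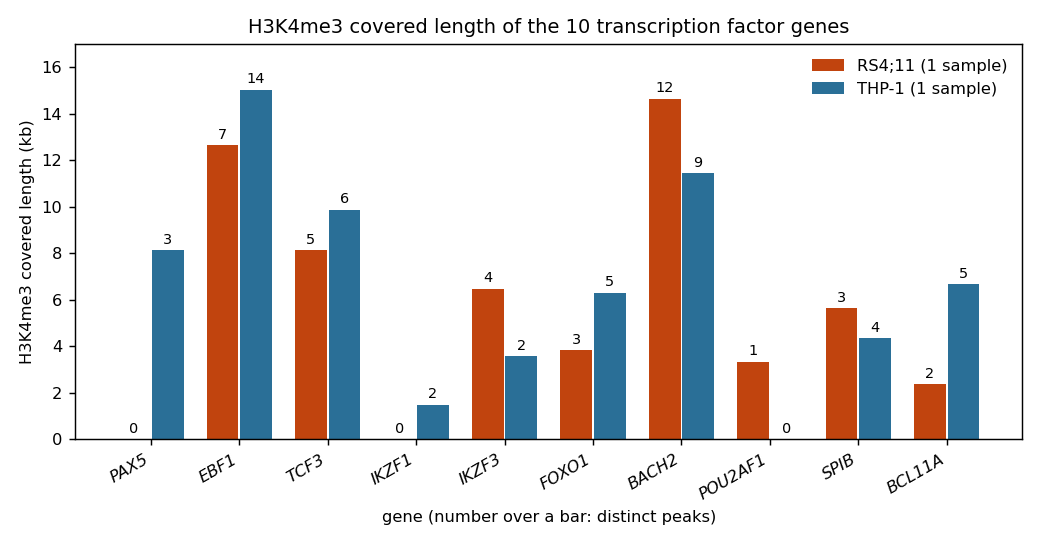
H3K4me3 covered length in kb (bars, starting at 0) of each of the 10 genes in RS4;11 and THP-1, 1 sample each, with the number of distinct peaks over each bar. BACH2 and EBF1 had the longest covered lengths in both lines, and PAX5 and IKZF1 had no bar in RS4;11.

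**Figure D3:**
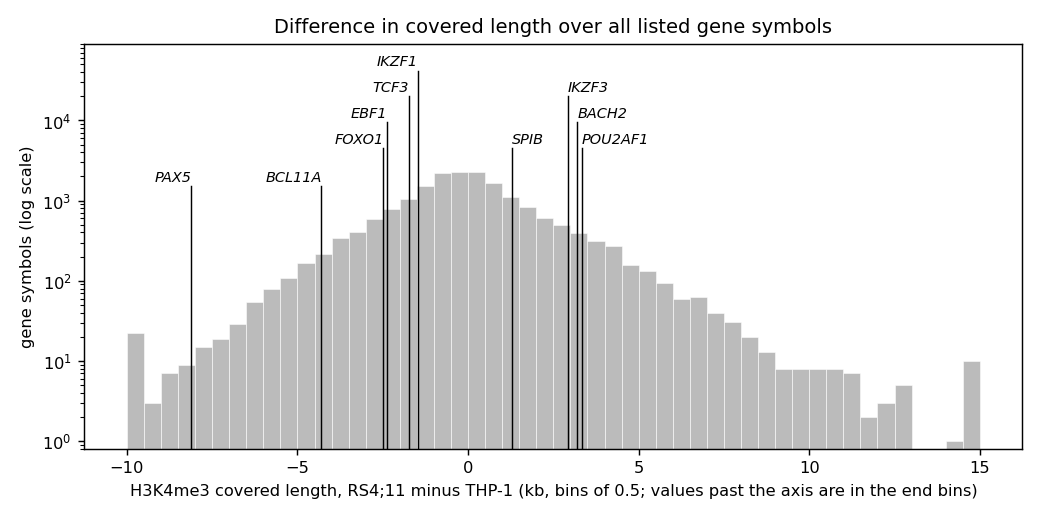
Number of gene symbols (log scale) by the difference in H3K4me3 covered length, RS4;11 minus THP-1, in bins of 0.5 kb, with the 10 genes marked by lines. PAX5 lies at -8117 bp in the left tail, and BACH2, POU2AF1, IKZF3 and SPIB lie right of 0.

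**Figure D4:**
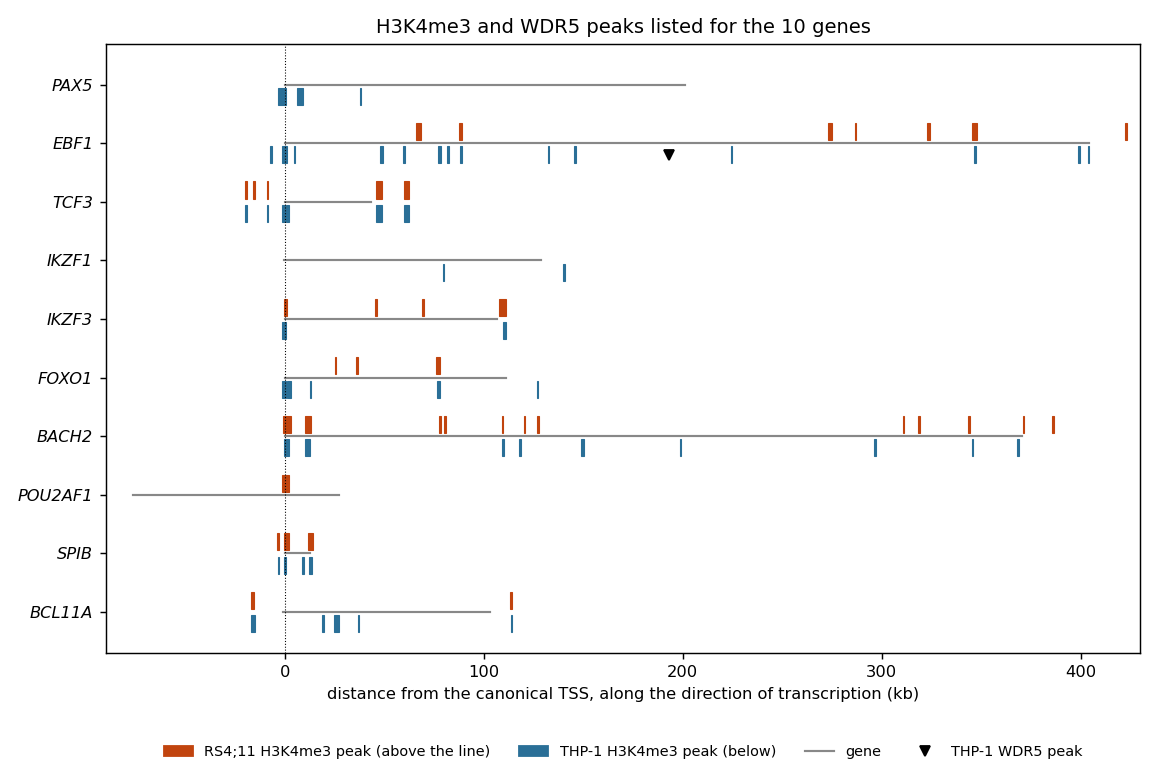
Position of every listed H3K4me3 peak of the 10 genes, in kb from the canonical TSS along the direction of transcription, with RS4;11 above and THP-1 below the line that marks the gene. Peaks are drawn to scale with a thin outline. The triangle is the WDR5 peak of THP-1 in EBF1, 193 kb from the TSS. Those of PAX5 in THP-1 lie within 38482 bp of the TSS, and none of EBF1 in RS4;11 lies nearer to it than 65861 bp.

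PAX5, the factor that commits cells to the B lineage (chr9:36833266-37034265, minus strand, hg19 as for all positions), had no listed H3K4me3 peak in RS4;11 and 3 in THP-1, with a covered length of 8117 bp. One THP-1 peak of 4037 bp (chr9:37033662-37037698) held the TSS and exon 1, and 99.1% of the THP-1 peaks were no wider. Of all starts under THP-1 peaks of 4000 to 4500 bp, 73.4% were also in an RS4;11 peak. A second of 3310 bp lay in intron 1 and held the start of another PAX5 transcript, and the third of 770 bp lay in intron 5. In RS4;11 the nearest listed peak was 248571 bp from the PAX5 TSS. The RS4;11 file had no peak across 708 kb around the gene, where the THP-1 file had 8, 3 of them of PAX5 and 5 of the neighbouring gene ZCCHC7. Outside this stretch ZCCHC7 was listed in RS4;11 too, and in all it had 2 peaks there (6429 bp) against 6 in THP-1 (8831 bp). By its difference in covered length, PAX5 stood 38th of 18494 symbols from the end where THP-1 exceeds RS4;11.

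EBF1, the pioneer factor of early B cells (chr5:158122928-158526924, minus strand), had 7 peaks in RS4;11 (12644 bp) and 14 in THP-1 (15022 bp), a ratio of 1.19 toward THP-1. The RS4;11 peaks were 6 within introns and 1 downstream of the gene. Those in introns were 2752, 1435, 611, 2373, 1426 and 2758 bp wide, the first and second in intron 10 and the last pair in intron 6. None was nearer than 65861 bp to the TSS. In THP-1 a peak of 2472 bp (chr5:158525897-158528368) held the TSS, in a width class in which 86.1% of starts were also in an RS4;11 peak. A further 11 lay within introns. The widest intron peak in THP-1 was 1577 bp. The lines thus shared 2 places, in introns 10 and 6, and differed in the rest. The RS4;11 peaks of 2373 bp in intron 7 and 2758 bp in intron 6 had no THP-1 peak on them.

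TCF3, which encodes the E proteins E12 and E47 (chr19:1609290-1652614, minus strand), had 5 peaks in RS4;11 (8133 bp) and 6 in THP-1 (9865 bp). In each line 4 of them overlapped a peak of the other. The widest, 2849 and 3247 bp, were downstream of TCF3, and they and the pair farther downstream were also listed for MBD3 and UQCR11. At the start the lines differed. THP-1 had a peak of 1216 bp that ended 76 bp before the TSS and one of 1820 bp that began 361 bp after it. RS4;11 had none nearer than 8371 bp. The canonical TSS was in no peak in either line, but the 1820 bp peak held starts of other TCF3 transcripts. In THP-1 2 of the 18 TCF3 start sites were in a peak, and in RS4;11 none. No RS4;11 peak lay in an exon or intron of TCF3.

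Ikaros (IKZF1) and Aiolos (IKZF3) are zinc-finger factors of lymphoid development. They lie at chr7:50343664-50472799 on the plus strand and chr17:37913971-38020565 on the minus strand. IKZF1 had no listed peak in RS4;11 and 2 narrow ones in THP-1, of 417 bp in intron 3 and 1058 bp downstream, and neither line had a peak on any of its 18 start sites. The RS4;11 file had no peak across 320.0 kb around IKZF1. IKZF3 had 4 peaks in RS4;11 (6479 bp) and 2 in THP-1 (3561 bp), a ratio of 1.82 toward RS4;11. Both lines had a peak on its TSS, of 1531 bp in RS4;11 and 2103 bp in THP-1, which was also listed for ZPBP2. The larger value came from a peak of 3463 bp downstream of the gene (chr17:37909484-37912946), also listed for GRB7, against 1458 bp in THP-1, and from 2 narrow peaks in intron 3.

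FOXO1, a forkhead factor that drives the recombination genes in B-cell precursors (chr13:41129804-41240778, minus strand), had 3 peaks in RS4;11 (3827 bp) and 5 in THP-1 (6306 bp). The peaks of RS4;11 all lay in intron 1, and the nearest was 25307 bp from the TSS. In THP-1 a peak of 2171 bp (chr13:41240082-41242252) held the TSS, and one of 1979 bp followed it in exon 1 and intron 1. The lines shared 1 place, deep in intron 1, where the RS4;11 peak was 2178 bp and the THP-1 peak 1077 bp wide.

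BACH2, a repressor that holds back plasma cell differentiation (chr6:90636247-91006562, minus strand), had the longest covered length of the 10 genes in RS4;11, 14648 bp in 12 peaks, against 11446 bp in 9 peaks in THP-1. Both lines had a peak on the TSS, of 3820 bp in RS4;11 (chr6:91003555-91007374) and 2691 bp in THP-1, and the THP-1 peak lay wholly inside that of RS4;11. The same held for a second peak in intron 1, of 3064 and 2613 bp. Of the other peaks 1 pair overlapped, in intron 4, and the rest were narrow, at most 1066 bp in RS4;11 and 1261 bp in THP-1.

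POU2AF1, the B-cell coactivator of the octamer factors (chr11:111222980-111326355, minus strand), had 1 peak in RS4;11 and none in THP-1. The RS4;11 peak of 3337 bp (chr11:111247995-111251331) held the TSS of the canonical transcript and exon 1, and 91.9% of the peaks of that file were no wider. In this width class 84.8% of starts were also in a THP-1 peak. In THP-1 the nearest listed peak was 79083 bp from this TSS. SPIB, an ETS factor of B cells and plasmacytoid dendritic cells (chr19:50922195-50934571, plus strand), had 3 peaks in RS4;11 (5623 bp) and 4 in THP-1 (4347 bp). Each of these 3 overlapped a THP-1 peak and was the wider of the pair: 770 against 441 bp upstream, 2296 against 931 bp on the TSS, and 2557 against 1783 bp at the 3′ end. All of them were also listed for MYBPC2 and POLD1.

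BCL11A, a zinc-finger repressor needed for early lymphoid cells (chr2:60677655-60781602, minus strand), had 2 peaks in RS4;11 (2365 bp) and 5 in THP-1 (6661 bp), a ratio of 2.82 toward THP-1. The lines shared a peak at -16.1 kb from the TSS, of 1475 and 1741 bp, and one downstream of the gene, of 890 and 759 bp. The difference came from 3 THP-1 peaks in intron 2, of 593, 2697 and 871 bp. The 2697 bp peak (chr2:60753439-60756135) held the start of another BCL11A transcript. Neither line had a peak on the canonical TSS of BCL11A.

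**Figure D5:**
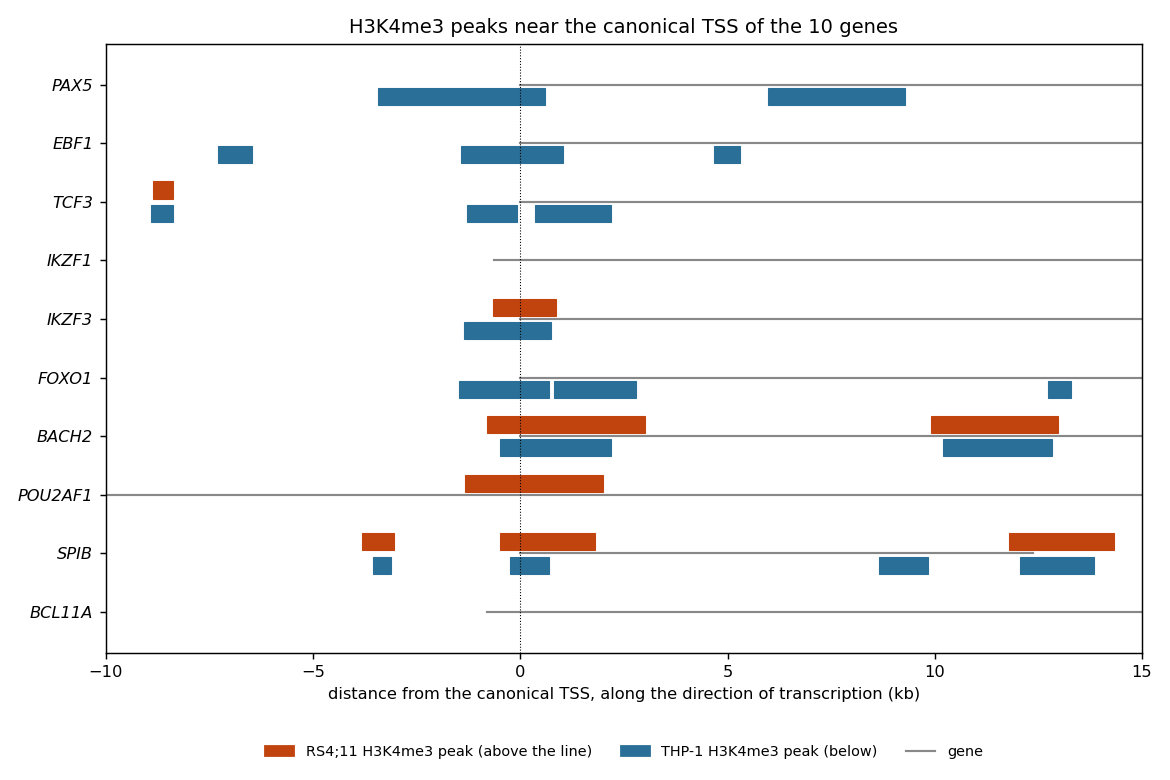
The same peaks from 10 kb before to 15 kb after the canonical TSS (dotted line at 0), with RS4;11 above and THP-1 below each gene line. BACH2, IKZF3 and SPIB had a peak on the TSS in both lines, POU2AF1 in RS4;11 only, and PAX5, EBF1 and FOXO1 in THP-1 only.

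Counted from the 5′ end of the gene record, 3 of the 10 genes started inside a peak in RS4;11 (45.7% of 20149 protein-coding genes) and 6 in THP-1 (48.4%). They were IKZF3, BACH2 and SPIB in both lines, with PAX5, EBF1 and FOXO1 in THP-1. POU2AF1 was not counted because its gene record begins 76355 bp upstream of the canonical start. From the TSS of the canonical transcript it was 4 genes in RS4;11 (49.6% of 19869 genes) and 6 in THP-1 (53.3%). The start was in a peak in RS4;11 only for 1 gene (7.59% of all) and in THP-1 only for 3 (11.3% of all). Peaks on the TSS had the larger median width, with ranges that overlapped those of the others. It was 2816.5 bp in RS4;11 (n = 4, 1531 to 3820 bp) and 2321.5 bp in THP-1 (n = 6, 931 to 4037 bp), against 1017 bp (n = 33) and 887.5 bp (n = 44) for the other peaks of these genes, which ran from 470 to 3463 bp and from 417 to 3310 bp.

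Of the 37 RS4;11 peaks of the 10 genes, 17 (45.9%, 95% Wilson interval 31.0 to 61.6%) overlapped a THP-1 peak by at least 1 bp, against 55.8% of all RS4;11 peaks. Of the 50 THP-1 peaks, 17 (34.0%, 22.4 to 47.8%) overlapped an RS4;11 peak, against 51.8% of all. The intervals cover counting error only. The THP-1 share lay below the file-wide value, which was outside its interval, and the RS4;11 interval held the file-wide value. Peaks of 1 gene are not independent, and EBF1 had 14 and BACH2 9 of the THP-1 peaks. The intervals therefore cannot decide whether these genes differ from the file. Width and position were not matched either. The median width of the THP-1 peaks of the 10 genes was 1051 bp, against 1241 bp in the file. Of the RS4;11 peaks 20 were flagged as intron only, and of the THP-1 peaks 26. PAX5, IKZF1 and POU2AF1 were listed in a single line and so had no peak that could be shared. SPIB shared all 3 of its RS4;11 peaks and TCF3 4 of 5.

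Among the 10 genes WDR5 was listed at EBF1 in THP-1 (1.7% of all symbols were listed in that file) and at none in RS4;11 (4.7% of all symbols). The EBF1 peak of 239 bp lay in intron 6, 193 kb from the TSS. It did not overlap H3K4me3, and the nearest listed H3K4me3 peak was 31.1 kb away in THP-1 and 79.7 kb away in RS4;11. The next nearest WDR5 peak to any of the 10 genes in THP-1 was 80.1 kb from IKZF1. In RS4;11 the nearest was 189860 bp from IKZF3. The single WDR5 peak has no replicate check, and its height is not in the file.

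Among 30 other regulators of the B lineage, covered length was at least 2-fold larger in RS4;11 for 6 (13.7% of all symbols) and in THP-1 for 8 (20%), and 16 met neither rule. The 6 were NFATC1 (16991 against 8268 bp), XBP1, POU2F2, BACH1, ID2 and KLF2. The 8 were TCF12 (3927 against 10314 bp), FLI1, LEF1, ELF1, ARID5B, BCL6, MEF2C and ZEB2. MYB and IKZF2 were listed in neither line. The median difference of this list was 0 bp. Among 20 B-cell genes that the factors are known to control, 5 were larger in RS4;11 (13.7% of all symbols) and 4 in THP-1 (20%). The count toward THP-1 is near its background. These 20 include the 10 B-lineage markers above, so the lists are not separate evidence. They and the 30 regulators were also chosen with earlier results of these data known. The 5 larger in RS4;11 were the same genes in both lists, and no other gene of the 20 was larger there. CD79A, which encodes a chain of the B-cell receptor, had 10684 bp in RS4;11 and 3002 bp in THP-1, CD22 had 6410 and 1184 bp, BLNK 5945 and 2324 bp, DNTT 1520 and 618 bp, and IGLL1 was listed in RS4;11 only. VPREB3, CR2, RAG2 and RAG1 were larger in THP-1, and RAG1 and RAG2 had the same 1664 bp there. The canonical TSS lay in a peak in RS4;11 only for 5 of the 20 genes (7.59% of all genes), CD79A, CD79B, FCRLA and LAX1 among them. It lay in one in THP-1 only for 3 (11.3% of all genes), BLNK, CR2 and IL7R. The symbols of largest difference toward RS4;11 were AUTS2, TRAPPC9, SMG6, LIPC and FMNL2, from 29933 down to 17018 bp, while the largest difference among the 10 genes in that direction was 3337 bp, of POU2AF1.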

How the data were processed

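WDR5 and H3K4me3 ChIP-seq peaks were analysed in RS4;11 and THP-1 cells, 1 sample each. According to the methods, the authors sonicated the chromatin for WDR5 and used micrococcal nuclease for H3K4me3, while the labels name sonication for all samples. The authors aligned reads to hg19 with Eland, kept unique alignments, ran MACS with its default settings and assigned the peaks to genes. The submitters' processing notes name CASAVA 1.7 and 1.8.2. The deposited files hold, in place of a numeric unit, peak positions and yes or no flags (20 kb upstream or downstream, exon, intron), with no tag counts, heights or p-values. Depth is not given in the sources used here.

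From these files, lines were reduced to distinct peaks, with width as end minus start plus 1, and covered length as the union per symbol. Genes and start sites came from GENCODE release 44 on GRCh37, and every peak on a sequence of that assembly lay within it. A 2-fold rule called a difference, with no test, since there was 1 sample per group. All 10 genes were named, with called genes of each list, genes that share a peak with them, and the 5 symbols of largest difference toward RS4;11. The genes and lists were chosen with earlier results of these data known. Sequences came from RefSeq and GRCh37. Shares have 95% Wilson intervals. The code that computes covered length and applies the 2-fold rule was checked on simulated peak lists. Python 3.11.15, numpy 2.4.6, scipy 1.17.1 and matplotlib 3.10.9 were used.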

Additional observations from a re-analysis of the deposited data

How the results depend on the processing

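With 1 sample per group, no replicate could be left out. No paired analysis was possible because no result comes from a test. Counts were held to be stable within 1.5 times. At a fold of 1.5 instead of 2, genes with more covered length in RS4;11 went from 1 to 2, with IKZF3 added. Toward THP-1 the counts stayed within 1.5 times of the main count of 3, but the genes changed. FOXO1 was added at a fold of 1.5, giving 4, and TCF3 with peaks in an exon or intron alone, also giving 4. BCL11A was no longer called at a fold of 3, which left 2. Peaks in an exon or intron alone lowered the distinct peaks in RS4;11 from 37 to 24. Within 100 kb of the gene, the genes with a WDR5 peak in THP-1 went from 1 to 2, with IKZF1 added. The other alternatives stayed within 1.5 times: gene coordinates with 20 kb flanks, a fold of 3, division by the covered length of the library, peaks of at least 500 or 1000 bp, peaks under 1 kb apart joined, starts within 1 kb or of any transcript, the canonical TSS or the authors' flags in place of the gene's 5′ end, and overlap of the smaller peak by at least 50%. Of the alternatives added after the data were seen, leaving out peaks on a TSS of the gene kept the count in RS4;11 at 1 but changed the gene from POU2AF1 to IKZF3, and lowered that in THP-1 from 3 to 2, without BCL11A. The unknown depth and the lack of peak heights limit every comparison to position and width.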
